A study of Mus musculus with 8 samples.

Results

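Slc28a2b, Slc14a1, Cnga1, Vipr1, Cd7, Art2b, Rasa3, Scml4 and Tsc22d3 are expressed genes of naive CD4 T cells that had little RNA left in Th17 cells. They are 9 of 16308 genes in the count table, picked by name because their counts were far lower in Th17 than in naive cells and because they are not among the usual markers of T cell quiescence. That choice used the same naive and Th17 libraries described here, so their levels and fold changes in this contrast are a description and carry no test. RNA depleted of ribosomal RNA was sequenced from wild-type C57BL/6 mouse CD4+ T cells, with 2 naive libraries from untreated cells and 2 Th17 libraries. Th17 cells came from 72 h cultures that received IL-6 (20 ng/mL), TGF-β (0.1 ng/mL), antibody to CD28 (1 µg/mL) and antibody to CD3 (0.25 µg/mL), as the treatment field of each sample states, while the protocol text of the labels also gives a range of TGF-β and a shorter time. Tables of A-to-I edited sites covered these 4 libraries and 2 further wild-type and 2 DDX5-deficient Th17 libraries of the same medium and time. The design text calls the replicates independent, and each is a bulk sample.

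A naive T cell circulates in a resting state and reads its surroundings through surface receptors, carriers and ecto-enzymes. When the T cell receptor and CD28 are engaged it enters the cell cycle, and under TGF-β and IL-6 it takes up the Th17 programme, whose signature product is interleukin-17. The usual account of the naive state centres on L-selectin, CCR7, IL-7 receptor and the transcription factors that keep it, whereas the genes described here encode carriers, a channel, surface proteins and intracellular brakes. The libraries carried the markers of their labels. Il17a had 0 reads in both naive libraries and 1241 and 910 CPM in the Th17 libraries, CPM being read counts set relative to library size, here on the TMM scale. Tcf7, a transcription factor of naive T cells, stood at 2683 and 2863 CPM in naive and 230.1 and 209 CPM in Th17 cells.

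Reads on genes per library ran from 11768994 to 26624436. Th17 library 2 stood apart from Th17 library 1, with 248 genes at 100 or more reads in library 2 and at most 3 in library 1, against 1 gene the other way. Its 8 stromal and endothelial markers other than Pecam1 summed to 769.8 CPM, against 2.50 CPM in Th17 library 1 and 4.14 and 3.17 CPM in the naive libraries. With Pecam1, which naive cells express, the 9 markers summed to 353 and 308.5 CPM in naive and 29.96 and 798 CPM in Th17 libraries. Of the other cell types looked for, markers of CD8 and natural killer cells summed to 99.2 to 113 CPM in naive and 54.2 to 54.5 CPM in Th17 libraries. Sums of B cell, myeloid and erythroid markers lay between 0.624 and 15.8 CPM in all 4 libraries. No measured marker of these lists was at 0 in all 4 libraries. Levels of the 9 genes are therefore given per Th17 library, while some other genes are given by fold change or summed reads alone. In bulk samples, fewer cells of a type and less RNA per cell cannot be told apart.

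Summed over the 9 genes, the naive libraries held 2425 and 2488 CPM and the Th17 libraries 60.54 and 62.07 CPM. All 9 were lower in both Th17 libraries than in either naive library, a pattern that 41.0% of the 11989 tested genes showed, and nothing is read from that count because the genes were chosen for it. In edgeR's quasi-likelihood fit across all tested genes, at a Benjamini-Hochberg adjusted p under 0.05, 30.7% of genes were called lower and 34.3% higher in Th17 cells. The median log2 fold change was -8.16 over the 9 genes and 0.06 over all tested genes. With both naive libraries 4116 genes were called higher and 3684 lower. Where either naive library was left out, fewer were called higher than lower. Those fits hold a single naive library and take their spread from the Th17 pair alone. The side with more calls is thus not stable to the loss of a naive replicate.

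**Figure D1:**
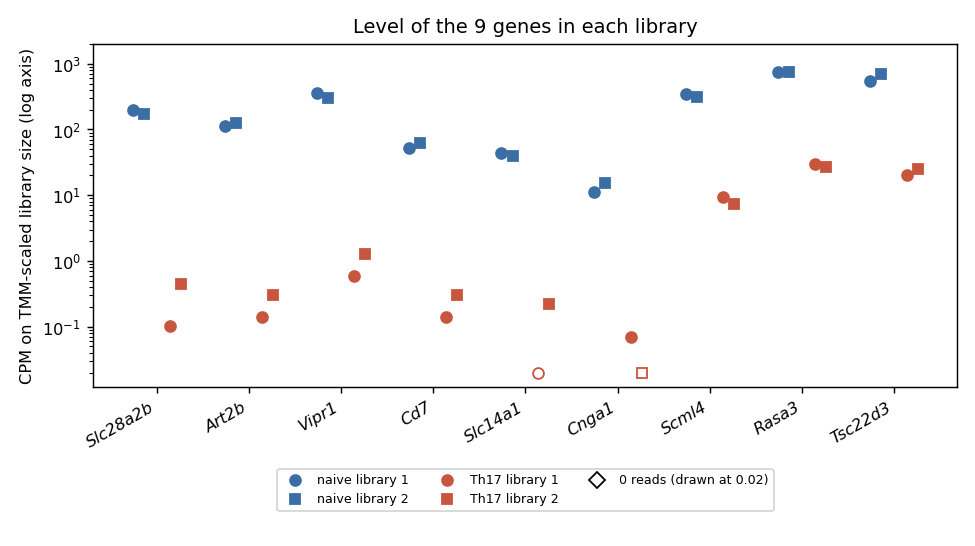
Level of each of the 9 genes in the 2 naive and 2 Th17 libraries, as CPM on a log axis, 1 point per library (circles library 1, squares library 2, open symbols 0 reads). Naive points run from 11.1 to 749.9 CPM and Th17 points from 0 to 29.72 CPM, and for no gene do the groups overlap.

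Among the 9, 3 genes encode membrane carriers or a channel. Slc28a2b is a near copy of Slc28a2, the concentrative carrier that brings purine nucleosides and uridine into cells with sodium. It lies at chr2:122484941-122528040 on the plus strand of GRCm38, where the annotation names it Gm14085. Its counts were 3774 and 2464 reads in naive and 3 and 6 in Th17 libraries, or 200.2 and 174 CPM against 0.104 and 0.448 CPM. Both Th17 libraries were low, and the groups did not overlap. The log2 fold change was -9.69 (SE 0.39, n = 2 libraries per group), the fourth largest fall of any tested gene, and it was -8.69 without Th17 library 1 and -10.73 without library 2.

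The neighbouring Slc28a2 gene was also lower in Th17 cells. Its level was 262 and 251 CPM in naive and 27.5 and 25.9 CPM in Th17 libraries, a fall of log2 -3.25 (SE 0.16, edgeR adjusted p = 5.7e-07). The longest transcripts of the pair are 95.9% identical over 3751 aligned columns, and 1498 of the 3691 words of 50 bases in Slc28a2b also occur in Slc28a2. How the counting treated reads that match both is not given in the sources used here, so the split of reads between the pair is uncertain. In Th17 cells the counts of the 2 genes differed widely, at 792 and 347 reads for Slc28a2 against 3 and 6 for Slc28a2b. The coding sequences match at 1876 of 1979 compared bases. Reads can be assigned wherever the pair differs, and the window of 60 coding bases that holds the most differences is shown. Capitals mark the 15 bases that differ, at chr2:122494289-122494348 for Slc28a2b and chr2:122447842-122447901 for Slc28a2, both plus strand.
Slc28a2b: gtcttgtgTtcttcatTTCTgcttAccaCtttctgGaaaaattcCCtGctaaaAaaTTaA
Slc28a2: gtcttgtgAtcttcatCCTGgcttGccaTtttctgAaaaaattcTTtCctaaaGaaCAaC

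Slc14a1 encodes the urea transporter UT-B, known from red blood cells and kidney, and lies at chr18:78100091-78142119 on the minus strand. It had 838 and 570 reads in the naive libraries (44.5 and 40.1 CPM). Th17 library 1 had 0 reads, where 3 reads, the upper limit that a count of 0 allows, would be 0.104 CPM, and Th17 library 2 had 3 reads (0.224 CPM). The ratio of summed reads, Th17 over naive, was 0.00167 (exact 95% interval 0.000344 to 0.00488, counting error only). Both Th17 libraries were low and both naive libraries were high. Erythroid cells are best known for this carrier, and the 9 measured erythroid markers summed to 15.2 and 8.73 CPM in naive and 4.96 and 15.8 CPM in Th17 libraries. Epor, the erythropoietin receptor and the 1 of 5 tested markers that rose, made up 4.40 and 4.78 CPM of the Th17 sums. The beta-globin gene Hbb-bs had 127 and 60 reads in naive, 0 in Th17 library 1 and 70 in Th17 library 2. Hbb-bt, Hba-a2 and Alas2 also had 0 reads in Th17 library 1. None of the 5 tested markers was called lower with both Th17 libraries. Where Th17 library 2 was left out, Hbb-bs (log2 fold change -9.83) and other markers of the list came out lower. That fit holds no spread between Th17 cultures. Slc14a1 itself was at 0 to 3 reads in both Th17 libraries, and the part of erythroid cells in its naive level was not tested.

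Cnga1 encodes the alpha subunit of the cGMP-gated cation channel of rod photoreceptors and lies at chr5:72603696-72644275 on the minus strand. It was the least abundant of the 9, with 210 and 217 reads in naive (11.1 and 15.3 CPM) and 2 and 0 reads in Th17 libraries. The ratio of summed reads was 0.00367 (exact 95% interval 0.000443 to 0.0133). Th17 library 2, with no read, allows up to 0.224 CPM, and the groups did not overlap.

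A further 3 genes encode proteins of the cell surface. Vipr1 encodes VPAC1, the receptor through which vasoactive intestinal peptide (VIP) and PACAP raise cAMP, and lies at chr9:121642716-121672954 on the plus strand. Its counts were 6882 and 4351 reads in naive and 17 and 17 in Th17 libraries, or 365 and 306 CPM against 0.590 and 1.27 CPM. This is a log2 fold change of -8.63 (SE 0.33), or -8.05 without Th17 library 1 and -9.14 without library 2. Th17 cells thus held 0.176% of the naive mean in library 1 and 0.378% in library 2, and both were far below either naive library.

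Cd7 encodes a small immunoglobulin-family glycoprotein of T and natural killer cells, at chr11:121036747-121039418 on the minus strand. It was read 995 and 875 times in naive cells (52.8 and 61.6 CPM) and 4 and 4 times in Th17 cells (0.139 and 0.299 CPM). Its log2 fold change was -8.16 (SE 0.30), or -7.55 without Th17 library 1 and -8.62 without library 2, and the groups did not overlap. Natural killer cells express the gene too, and the marker sum of CD8 and natural killer cells was lower in Th17 libraries, at 54.2 and 54.5 CPM against 99.2 and 113 CPM, with 4 of its 6 tested markers falling and 1 rising (2 falling without naive library 2). Prf1 (52.8 and 59.6 CPM) and Cd8b1 (20.85 and 27.4 CPM) held most of the naive sum. In naive libraries Klrd1, Eomes and Nkg7 stood at 5.00 to 11.8 CPM. Cd8a, Klrb1c, Klrk1, Ncr1 and Zbtb16 were each at or under 0.743 CPM there. Whether CD8 or natural killer cells contributed to the naive Cd7 level was not tested.

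Art2b encodes a GPI-anchored ecto-ADP-ribosyltransferase, an enzyme that uses extracellular NAD to modify surface proteins such as the P2X7 receptor, at chr7:101576970-101585600 on the minus strand. It had 2117 and 1802 reads in naive (112 and 127 CPM) and 4 and 4 reads in Th17 libraries (0.139 and 0.299 CPM). The log2 fold change was -9.23 (SE 0.29), or -8.62 without Th17 library 1 and -9.69 without library 2, and both Th17 libraries were low. Its near copy Art2a-ps is 86.7% identical over 1210 aligned columns and shares 140 of 2770 words of 50 bases, so a small part of its reads may be placed in either.

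The last 3 genes act inside the cell and kept more of their RNA. Rasa3 encodes a GTPase-activating protein that switches off Ras and Rap1 and is known for restraining integrin activation, at chr8:13566948-13677603 on the minus strand. Its counts were 14132 and 10652 reads in naive (749.7 and 749.9 CPM) and 857 and 362 in Th17 libraries (29.7 and 27.0 CPM). That gave a log2 fold change of -4.71 (SE 0.19), and libraries of a group lay close together.

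Scml4 encodes a SAM-domain protein related to polycomb-group proteins, at chr10:42860370-42960780 on the plus strand. It stood at 6490 and 4390 reads in naive (344 and 309 CPM) and 273 and 100 in Th17 libraries (9.47 and 7.47 CPM). The log2 fold change was -5.25 (SE 0.20), with no overlap of the groups.

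Tsc22d3 encodes GILZ, a leucine zipper protein induced by glucocorticoids and by FOXO factors in resting lymphocytes, at chrX:140539528-140600659 on the minus strand. It was read 10284 and 10020 times in naive (545.5 and 705 CPM) and 586 and 335 times in Th17 libraries (20.3 and 25.02 CPM). Its log2 fold change was -4.78 (SE 0.23). Its naive libraries differed more than those of Rasa3, yet both were far above the Th17 libraries.

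The 9 genes split by how much RNA was left. Slc28a2b, Art2b, Vipr1, Cd7, Slc14a1 and Cnga1 had a Th17 mean under 1% of the naive mean, and for Cnga1 the interval of the ratio reaches 1.33%. Scml4, Rasa3 and Tsc22d3 kept 2.29% to 4.001%. Among the 7815 tested genes at least as abundant in naive cells as Cnga1, 13 (0.166%) had a Th17 mean under 1% of naive and 59 (0.755%) under 5%, the 9 genes included. The reads left on the 6 lowest genes were 30 in Th17 library 1 and 34 in the shallower library 2, or 0.138% and 0.337% of naive. Vipr1 gave 17 of the reads in each library, and Cnga1 went the other way, with 2 and 0 reads. The other 3 genes together stood at 3.50% of naive in both libraries. The higher share of the 6 genes was in the library with the stromal marker reads. Whether it differs beyond the spread between cultures, and the part of those cells in it, was not tested.

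**Figure D2:**
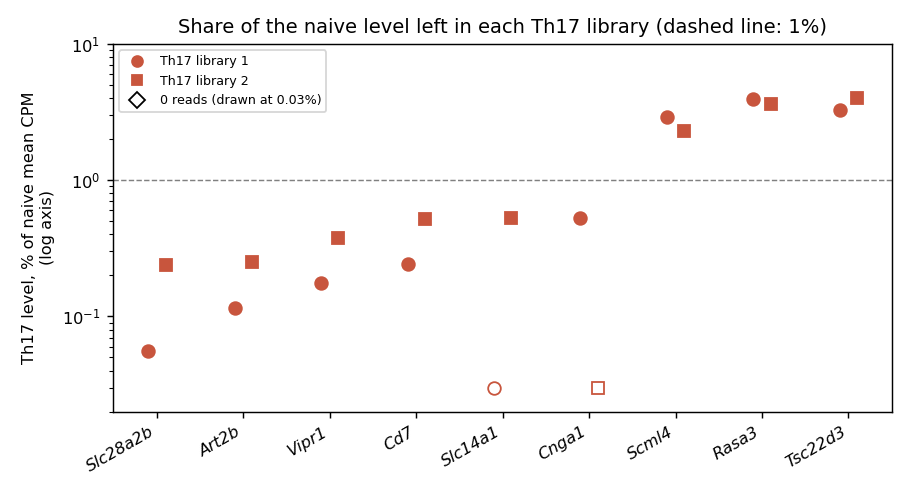
Share of the naive mean CPM left in each Th17 library, in percent on a log axis, for each of the 9 genes (circles library 1, squares library 2, open symbols 0 reads, dashed line 1%). Scml4, Rasa3 and Tsc22d3 sit at 2.29% to 4.001%, and the other 6 genes sit at or under 0.530% in each library.

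Per kilobase of annotated exon, Rasa3 (147 ± 0.027 CPM per kb, SD, n = 2) and Tsc22d3 (144 ± 26.0) were the most abundant in naive cells, and their libraries overlapped. Vipr1 (57.9 ± 7.17) and Cd7 (50.5 ± 5.50) came next and overlapped each other. Scml4 (42.3 ± 3.23), Art2b (42.3 ± 3.64) and Slc28a2b (37.4 ± 3.79) followed and overlapped, and Slc14a1 (10.6 ± 0.766) and Cnga1 (2.09 ± 0.462) were each apart. In Th17 cells Rasa3 (5.57 ± 0.372) and Tsc22d3 (5.22 ± 0.766) still led, Scml4 (1.10 ± 0.183) came next, and the libraries of the other 6 overlapped from neighbour to neighbour. By naive level per kilobase Cnga1 lay at the 30.1 percentile of 11984 genes and Rasa3 at the 97.8 percentile. Lengths from the longest transcript instead gave 4.82 for Cnga1, 66.9 for Scml4 and 217.5 for Tsc22d3, which puts Tsc22d3 above Rasa3 (170.2).

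**Figure D3:**
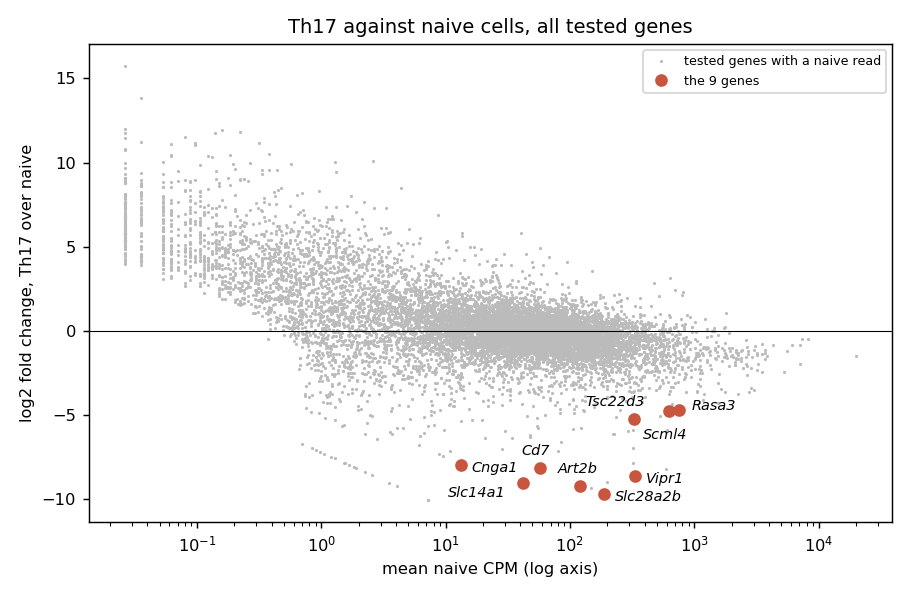
Log2 fold change of Th17 over naive against mean naive CPM (log axis), 1 point per tested gene with at least 1 naive read, so genes without a naive read are not drawn. The 9 genes, in red, lie between -4.71 and -9.69 at naive means of 13.2 to 749.8 CPM, along the lower edge of the cloud.

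Start regions were read from RefSeq promoters of GRCm38.p6, 250 bases before to 50 after each start. Promoters of 6 of the 9 genes were used, and the statements below cover these 6 only. They are shown because the genes are low together and differ widely in one feature, the count of CG pairs, marked in capitals. The median promoter in the table has 7 CG pairs (quartiles 3 and 20). Slc28a2b, at chr2:122484691-122484990 (+), has 0 and Art2b, at chr7:101581112-101581411 (-), has 3. Rasa3, at chr8:13677538-13677837 (-), has 26 and Vipr1, at chr9:121642466-121642765 (+), has 35, and Cnga1 has 4.
Slc28a2b: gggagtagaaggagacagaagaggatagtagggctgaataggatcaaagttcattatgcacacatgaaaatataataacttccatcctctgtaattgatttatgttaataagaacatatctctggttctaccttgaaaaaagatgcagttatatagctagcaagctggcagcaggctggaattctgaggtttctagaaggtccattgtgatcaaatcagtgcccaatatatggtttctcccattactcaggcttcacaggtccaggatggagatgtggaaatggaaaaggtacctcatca
Art2b: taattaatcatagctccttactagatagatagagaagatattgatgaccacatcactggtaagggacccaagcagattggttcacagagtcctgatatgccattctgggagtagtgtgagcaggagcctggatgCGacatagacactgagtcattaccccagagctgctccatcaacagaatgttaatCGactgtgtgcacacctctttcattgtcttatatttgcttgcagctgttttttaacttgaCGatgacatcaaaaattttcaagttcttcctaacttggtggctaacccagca
Rasa3: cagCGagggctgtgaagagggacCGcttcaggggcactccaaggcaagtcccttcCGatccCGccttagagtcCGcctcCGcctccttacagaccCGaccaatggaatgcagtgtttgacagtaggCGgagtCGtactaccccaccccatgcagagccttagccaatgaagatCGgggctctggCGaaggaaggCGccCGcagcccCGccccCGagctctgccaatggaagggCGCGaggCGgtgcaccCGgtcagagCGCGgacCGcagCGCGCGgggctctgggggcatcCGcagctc
Vipr1: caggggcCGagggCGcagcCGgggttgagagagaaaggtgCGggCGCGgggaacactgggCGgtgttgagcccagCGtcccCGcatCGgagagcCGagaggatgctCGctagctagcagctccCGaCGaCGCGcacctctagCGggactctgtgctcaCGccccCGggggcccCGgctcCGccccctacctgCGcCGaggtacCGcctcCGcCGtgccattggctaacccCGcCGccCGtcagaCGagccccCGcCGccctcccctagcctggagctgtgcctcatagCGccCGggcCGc
The 3 starts of Tsc22d3 have 3, 15 and 16 CG pairs. Vipr1 and Slc28a2b, both under 1% of their naive level in Th17 cells, thus lie at opposite ends of this range. The nearby Slc28a2 start has 1 CG pair, and the longest matching run between it and that of Slc28a2b was 8 bases, although the transcripts are near copies.

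Motifs of factors known in naive or activated T cells were searched on both strands of these promoters. Promoters of Cd7, Scml4 and Slc14a1 were not searched. The forkhead core TGTTTAC occurred in none of the 6 genes and in 3.65% of all 32851 promoters. The TCF1 and LEF1 core CTTTGAT (3.73% of promoters) occurred in Slc28a2b, 208 bases before the start on the minus strand. The AP-1 element TGANTCA (7.81%) occurred in Art2b, 104 bases before the start, and reads on both strands. The CACCC box CCNCACCC (16.6%) occurred in Rasa3, 111 bases before the start, and the RUNX core TGTGGTT (5.27%) in 1 start of Tsc22d3, 204 bases before it. None of the 6 held the ETS core CCGGAAG (8.86%), the cAMP response element TGACGTCA (1.79%) or the TATA box TATAAA (13.6%). None of them held a glucocorticoid element, written GNACA, 3 bases of any kind and TGTNC (0.475%). No motif was shared between 2 of these 6 genes in these windows. A match describes letters and not binding.

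Each gene was then set beside its family and pathway, in 9 lists that hold none of the 9 genes. Of 180 tested genes on these lists, 74 (41.1%) were called lower and 51 (28.3%) higher, with a median log2 fold change of -0.24. A reference list of quiescence genes had 20 of 24 tested genes called lower and 1 higher, with a median of -2.34. The rises numbered 2 without naive library 1 and without Th17 library 2. The lists were drawn up with earlier results of these data known, so the shares are a description.

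**Figure D4:**
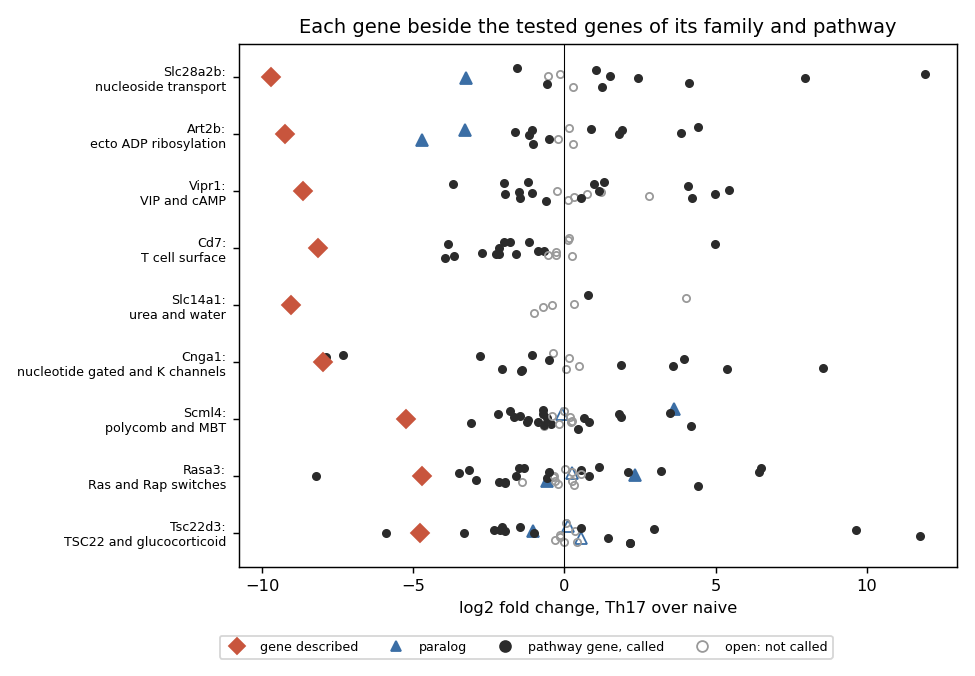
Log2 fold change of Th17 over naive for each of the 9 genes (red diamonds) beside the tested genes of its list (circles) and its paralogs (blue triangles), filled where called by edgeR and open where not, with fitted values for genes at 0 reads in a group. The 9 genes sit at the left end of their lists, except that Rasgrp2 lies left of Rasa3 and Pik3ip1 left of Tsc22d3.

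Among 13 tested genes of nucleoside transport and purine handling, 7 rose and 3 fell, with a median log2 fold change of 1.04. Adora2b, an adenosine receptor, had 0 naive reads and 25.3 and 25.6 CPM in Th17 libraries, at least 137-fold higher against a floor of 3 reads in each naive library. Pnp2, a purine nucleoside phosphorylase, also had 0 naive reads and 1.66 and 1.57 CPM in Th17 cells, at least 8.73-fold higher, though without naive library 1 its edgeR adjusted p was 0.056. Nt5e, the ecto-enzyme CD73 that makes adenosine, fell from 42.4 and 36.7 to 8.46 and 18.1 CPM, a call lost without either naive library (adjusted p = 0.18 and 0.14 with edgeR). Leaving out naive library 2 left 1 of the 3 falls. Slc29a1, the equilibrative carrier ENT1, stood at 42.7 and 50.3 CPM in naive and 59.4 and 51.8 CPM in Th17 libraries and was not called.

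On the list around Art2b, 5 of 15 tested genes rose and 7 fell, with a median of -0.21. The related ADP-ribosyltransferase Art4 fell from 8.97 and 9.15 to 0.208 and 0.523 CPM, a log2 fold change of -4.71 (SE 0.53). Art5 had 15 and 10 reads in naive and 2 and 1 in Th17 libraries, a ratio of 0.0939 (exact 95% interval 0.0182 to 0.308). Its call was lost with DESeq2 (adjusted p = 0.057) and with no filter on low counts (edgeR adjusted p = 0.096). It was also lost where naive library 2 or Th17 library 1 was left out (log2 fold change -3.43 and -3.21). Cd38 and Bst1, ecto-enzymes that consume NAD, both passed the test as higher. Cd38 rose from 0.371 and 0.211 to 3.75 and 5.00 CPM, or 3.86 on the log2 scale (SE 0.58), with an edgeR adjusted p of 0.057 without naive library 2. Bst1 had 1 naive read against 30 Th17 reads, a ratio of 23.5 (exact 95% interval 3.90 to 958). Its call was lost with no filter on low counts (edgeR adjusted p = 0.081). It was also lost where either naive library was left out (log2 fold change 3.36 without library 1 and 7.03 without library 2). P2rx7, the ATP-gated channel that ART2 enzymes modify, fell by 1.65 on the log2 scale (SE 0.20). Without naive library 1 the falls numbered 4, and without naive library 2 the rises numbered 3.

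Around Vipr1, 8 of 22 tested genes of the VIP and cAMP route rose and 8 fell, with a median of 0.43. The related receptors had few reads: Vipr2 (VPAC2) had 3 reads in each group and Adcyap1r1 (PAC1) 0 in naive and 4 in Th17 cells, both below the level tested. Crem, a cAMP-responsive transcription factor, rose from 8.91 and 12.04 to 353 and 295 CPM, a log2 fold change of 4.97 (SE 0.22). Prkar1b, a regulatory subunit of protein kinase A, rose from 2 to 111 summed reads, a ratio of 43.5 (exact 95% interval 11.8 to 363), with edgeR adjusted p of 0.06 and 0.055 when either naive library was left out. Ramp1, the partner of the CGRP receptor, fell by 3.70 on the log2 scale (SE 0.35), and the adenylyl cyclase Adcy7 fell from 501.5 and 418 to 128 and 99.3 CPM. Leaving out either naive library left 5 of the 8 rises.

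The list for Cd7, small surface glycoproteins of T cells, had 13 of 20 tested genes called lower and 1 higher, with a median of -1.39. Slamf6 fell from 214.5 and 186 to 12.3 and 13.7 CPM and Cd96 from 197 and 241.5 to 17.2 and 12.6 CPM. The one that rose was Cd44, the hyaluronan receptor of activated T cells, from 14.8 and 16.8 to 532 and 460.4 CPM. Cd5 (669 and 710.3 against 805 and 696 CPM) and Cd28 (353 and 331 against 450.5 and 359 CPM) were not called. Cd7 had a log2 fold change of -8.16 where Slamf6 and Cd96 fell by 3.94 (SE 0.18) and 3.86 (SE 0.21). Without Th17 library 1, 2 genes of the list rose.

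Among 6 tested genes of urea and water transport, 1 rose and 0 fell in edgeR, while DESeq2 called 1 lower. The one that rose was Asl, the argininosuccinate lyase of urea synthesis, by log2 0.79 (SE 0.15). Without Th17 library 1, 2 genes rose, and without Th17 library 2, 2 fell. The paralog of Slc14a1, Slc14a2, had 0 naive reads and 0 and 3 Th17 reads, below the level tested.

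Among 17 tested genes of cyclic nucleotide-gated channels, cGMP enzymes and T cell potassium channels, 5 rose and 8 fell, with a median of -0.38. No other subunit of the channel was expressed to a level that could be tested: Cnga3 had 2 reads, Cnga4 had 2 and Cngb1 had 1 over the 4 libraries. Of the measured subunits, Cnga1 was the only one with more than 2 reads in any library. Kcnh3, a voltage-gated potassium channel, fell from 9.44 and 8.24 CPM to 1 read in each Th17 library, a ratio of 0.00531 (exact 95% interval 0.00064 to 0.0193). Pde2a, a cGMP-stimulated phosphodiesterase, had 45 and 10 naive reads and 0 Th17 reads, at least 9.42-fold lower, with an edgeR adjusted p of 0.086 without naive library 2. Prkg1, the cGMP-dependent kinase, went from 0 reads to 1.14 and 3.88 CPM, at least 13.6-fold higher, with edgeR adjusted p of 0.072 and 0.068 without naive library 1 and 2. Kcnk5, a potassium leak channel, rose from 0.318 and 0.141 to 8.04 and 12.03 CPM. Leaving out naive library 1 left 2 rises and 3 falls, and leaving out naive library 2 left 3 and 2.

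For Rasa3, 9 of 33 tested regulators of Ras and Rap rose and 13 fell, with a median of -0.31. Of its paralogs, 1 rose, 1 fell and 1 was not called. Rasa4 rose by 2.32 (SE 0.22) on the log2 scale, from 6.31 and 5.07 to 25.5 and 31.3 CPM. Rasa2 was not called, at 89.2 and 74.1 CPM in naive and 103 and 90.9 CPM in Th17 libraries. Rasa1 fell by 0.59 (SE 0.20), a call lost in 5 of 10 other settings, among them without naive library 1 (edgeR adjusted p = 0.29), without naive library 2 (0.2) and without Th17 library 1 (0.17, at a log2 fold change of -0.36). Rasgrp2, the exchange factor that activates Rap1 and so acts opposite to Rasa3, fell from 602 and 576.5 to 1.63 and 2.39 CPM, a log2 fold change of -8.23 (SE 0.26) beside the -4.71 of Rasa3. Rasal1, another Ras inhibitor, fell by 3.49 (SE 0.28), while Dab2ip rose from 9 to 901 summed reads, by 6.43 (SE 0.64), and Rasal2 by 6.48 (SE 1.05). Both were higher in Th17 library 2 than in library 1, Dab2ip at 28.9 against 17.8 CPM and Rasal2 at 15.8 against 6.14 CPM. Without either naive library the rises numbered 5.

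For Scml4, 8 of 29 tested polycomb and MBT genes rose and 13 fell, with a median of -0.40. Its relative Scmh1 was not called (log2 fold change -0.09, SE 0.18). Scml2 rose from 0.106 and 0.141 to 1.91 and 1.20 CPM, by 3.63 (SE 0.74), with edgeR adjusted p of 0.14 and 0.11 without naive library 1 and 2. Samd11 rose by 4.19 (SE 0.69), with an edgeR adjusted p of 0.072 without naive library 2. Cbx7, a chromobox reader of polycomb marks, fell by 3.09 (SE 0.19), from 316 and 245 to 33.8 and 31.4 CPM. Leaving out naive library 1 left 4 rises and leaving out naive library 2 left 3.

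For Tsc22d3, 7 of 25 tested genes of the TSC22 family and the glucocorticoid response rose and 9 fell, with a median of -0.01. Of its family, Tsc22d4 fell by 1.05 (SE 0.18), Tsc22d2 was not called (log2 fold change 0.11, SE 0.17), and Tsc22d1 was not called (0.56, SE 0.44). Tsc22d1 passed where Th17 library 1 was left out (log2 fold change 1.00), in a fit that holds no spread between Th17 cultures. Genes of the list as a whole went both ways, and 9 of them were not called. Pik3ip1, an inhibitor of PI3 kinase, fell from 337 and 306 to 4.51 and 6.42 CPM, by 5.90 (SE 0.23), and the kinase Sgk1 fell by 3.31 (SE 0.46). The metallothioneins rose, Mt1 from 0.265 and 0.141 to 156 and 189 CPM and Mt2 from 1 read to 114 and 140.0 CPM. The glucocorticoid receptor Nr3c1 itself fell by 2.08 (SE 0.17), from 140.3 and 121 to 33.2 and 27.9 CPM.

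The chromosomal neighbours of the 9 genes, the nearest tested gene on each side, were mixed. Of 18, 6 rose, 5 fell and 7 were not called, with a median log2 fold change of 0.16. Slc28a2b lies between Slc28a2, which fell, and Gatm, an enzyme of creatine synthesis, which rose from 0.212 and 0.141 to 78.9 and 122 CPM. Art2b lies beside Pde2a, which fell, and Clpb, which rose by 0.62 (SE 0.15, edgeR adjusted p = 0.055 and 0.052 without naive library 1 and 2). Neither neighbour of Cd7 (Csnk1d and Ogfod3) nor of Scml4 (Sec63 and Pdss2) was called by edgeR, while Sec63 was called higher with upper-quartile scaling (adjusted p = 0.027) and by DESeq2 (0.042). Beside Rasa3, Cdc16 rose by 0.58 (SE 0.15), and Gas6 had 0 naive reads and 0.867 and 21.7 CPM in Th17 libraries. Gas6 was not called in the fit of both Th17 libraries (edgeR adjusted p = 0.28). It passed where either Th17 library was left out, in fits that hold no spread between Th17 cultures. Its log2 fold change was then 11.38 without library 1 and 7.17 without library 2. Beside Slc14a1, Setbp1 rose by 3.09 (SE 0.70), to 4.68 CPM in Th17 library 1 and 13.1 CPM in Th17 library 2. Its call was lost without either naive library (log2 fold change 3.95 without library 1 and 2.53 without library 2). Annotated genes overlap Cd7, Cnga1 and Scml4, among them Gm11775 antisense to Cd7. Whether the counting used strand is not given in the sources used here, so reads of such pairs cannot be told apart.

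**Figure D5:**
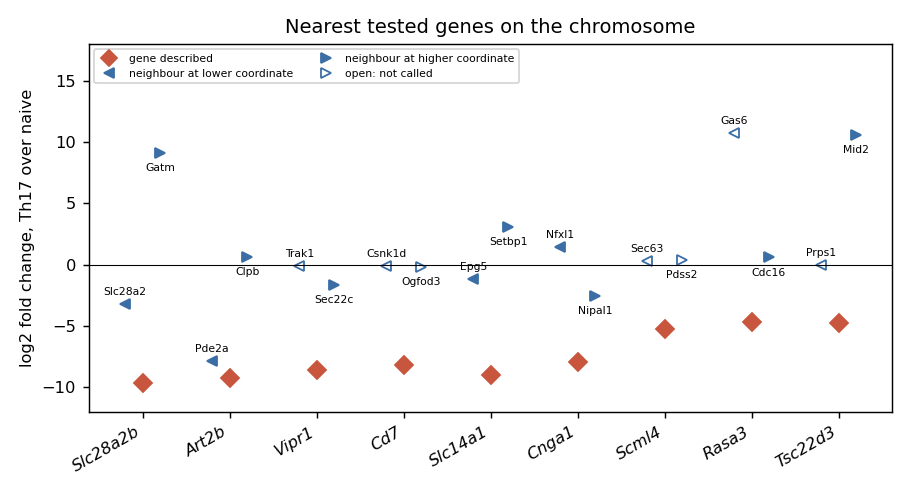
Log2 fold change of Th17 over naive for each of the 9 genes (red diamonds) and for the nearest tested gene on either side along the chromosome (blue triangles, pointing to the side, open where not called by edgeR). Of the 18 neighbours 6 rose and 5 fell, and those with 0 reads in a group are drawn at fitted values.

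A-to-I editing gave a readout that the choice of genes did not use. None of the 869 listed sites in naive and Th17 cells, which lie in 350 genes, fell in any of the 9 genes. None of the 355 sites listed for wild-type and DDX5-deficient Th17 cells, in 143 genes, did so either. With 16308 genes in the count table, most genes hold no listed site, so nothing about the 9 genes is read from this. In the Th17 libraries, with 0 to 17 reads on 6 of the genes, sites there were not detectable at this depth.

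Some other genes came near the median profile of the 9 genes, which differ among themselves in level. By the distance between log2(CPM + 0.5) in the 4 libraries and the median of the 9 genes, the nearest were Ifit1bl1 (0.542), Ifi213 (0.604), Ifi208 (1.01), Ggt5 (2.0) and Slc16a5 (2.08). Ifit1bl1 stood at 167 and 126 CPM in naive and 0.139 and 0.374 CPM in Th17 libraries, and Ifi213 at 227 and 172 CPM against 0.416 and 0.299 CPM. Slc16a5 had 0 and 1.57 CPM in the Th17 libraries. Its call was lost with no filter on low counts (edgeR adjusted p = 0.082). It was also lost where naive library 1 or 2 was left out (log2 fold change -6.92 and -6.84).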

How the data were processed

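RNA was measured in 2 naive and 2 Th17 libraries. Per the submitters' processing notes, the authors used STAR 2.6.1a, featureCounts and DESeq2 1.18.1 on mm10; the settings and use of strand are not given in the sources used here. The deposited table holds raw counts per gene, and per the file headers a normalized signal (counts over 1 size factor per library), the log2 fold change, the Wald score and the p-value, all made by the authors. The editing tables hold the fraction of edited reads per site, as deposited.

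Of 16308 genes, 16295 matched GENCODE M21 by identifier, which gave positions and exon lengths. The counts were tested with edgeR 4.0.16 in R 4.3.3 (filterByExpr, TMM, robust quasi-likelihood, two-sided, Benjamini-Hochberg over 11989 genes), calling at 0.05; SE is the fold change over the root of F. Alternatives were RLE and upper-quartile scaling, DESeq2 1.42.0, other filters, a replicate block and leaving out each library. Leaving out a library leaves its group without a replicate, so the spread then comes from the other group alone. The fit was tested on simulated data. A fold against 0 reads uses 3 reads per library; intervals are exact binomial at 95% and cover counting error only, since PCR copies cannot be told from separate molecules here. Naive and Th17 library 2 share a number in their library names, whose meaning the labels do not give, while the other libraries share none. If it marks a shared source, these libraries are paired across the groups, and the main fit leaves that pairing out. If replicates within a group were not separate animals, the p-values measure technical spread.

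The 9 genes and all lists were chosen with earlier results of these data known. Named beside them, by rule, were tested paralogs, the 2 largest rises and falls called per list, the nearest tested gene on each side, the 5 closest profiles and the most abundant marker per other cell type; Slc29a1, Cd5, Cd28, P2rx7, Nr3c1, Tcf7, Il17a and untested paralogs were added for context after their values were seen. 1 named result is not reported here.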

Additional observations from a re-analysis of the deposited data

How the results depend on the processing

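No log2 fold change of a named gene called in the fit of all libraries changed sign in the alternatives run, but the side with more calls did: without either naive library fewer genes were called higher than lower. Leaving out 1 library at a time gave 2380 to 4847 genes called higher and 2567 to 3672 called lower. Over the 9 pathway lists it gave 32 to 51 higher and 56 to 76 lower. With a replicate block, which pairs libraries by replicate number only, edgeR called 4094 genes higher and 3644 lower. Of the pairs so made, only that of libraries 2 shares a number in the library names. Deviations of libraries with the same replicate number correlated at -0.0814 across genes. The block ended the call of Slc16a5 (edgeR adjusted p = 0.16) and added Gas6 (1.9e-06). Upper-quartile scaling moved the median log2 fold change of all genes from 0.06 to 0.18 and gave 4496 higher and 3280 lower. For the 9 genes, 77 of 90 alternative log2 fold changes stayed within the spread of the libraries and 13 moved, the widest being Slc14a1 (-7.52 to -12.77) and Cnga1 (-7.45 to -10.68), which rest on 3 and 2 Th17 reads and whose lowest values are fitted against 0 reads. Of 65 other named genes, 45 kept the side of the threshold in each alternative run; of the rest, Cd79a, the top B cell marker, lost its call in 6 of 10 (adjusted p = 0.08 to 0.3), and Zbtb46 without either naive library (0.058 and 0.069), and the others are given with their results. RLE, upper-quartile scaling, DESeq2 and the block each raised the rises among quiescence genes from 1 to 2. Depth limits the 6 lowest genes, at 0 to 17 reads per Th17 library.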

Other observations

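The authors' deposited table gave log2 fold changes from -4.69 to -9.75 for the 9 genes, with its own standard errors from 0.12 for Tsc22d3 to 2.20 for Slc14a1. Over the 9 genes the median absolute log2 difference between replicate libraries was 0.21 in naive and 0.32 in Th17 cells, against 0.20 and 0.19 over all tested genes. In Th17 library 2 the 3 collagen genes of the stromal list held 8861 reads, against 35 in Th17 library 1 and 13 and 2 in the naive libraries.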
